A study of Canis lupus familiaris with 81 samples.

Results

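Probe RTS0112273 is 1 of the 2010 probes counted in canine appendicular osteosarcoma, and it separates 24 tumours over a very wide range. The comparison described here sets the 8 tumours with the highest level of this probe against the 8 with the lowest, 16 of the 24 tumours in all, and asks which other probes were higher or lower with it. The tumours were chosen by the measured level of RTS0112273 itself, so the 2 sets are not groups of the study's own design. The probe was not among the probes tested, and its own levels are given only as a description. Its counts stayed in the totals and in the measure of composition.

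Osteosarcoma is a malignant bone tumour whose cells make unmineralised bone matrix, called osteoid. In dogs it arises mostly in the long bones of the limbs, and a piece of it holds tumour cells together with vessels, fibroblasts, bone-resorbing osteoclasts and immune cells in varying parts. The GeoMx Digital Spatial Profiler counts tagged probes released by light from a chosen area of a tissue section, so each value sums over all the cells of that area. Fewer cells of a type and less RNA per cell cannot be told apart in such values.

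The tissue was primary osteosarcoma of pet dogs in a clinical trial of the Comparative Oncology Trials Consortium and lay on 2 tissue microarrays. Each tumour number of the labels was taken as 1 tumour, with 2 regions on each array in 10 tumours and 1 region on each array in 14. Kidney, spleen and liver served as control tissues, with 4 regions each. The study itself compared dogs by disease-free interval, the time without disease after treatment, and the labels used here do not give the interval of single tumours. The high and low sets below are therefore not its interval groups. Treatment, age and breed are not in these labels either, the labels do not say whether each number is a different dog, and the dogs behind the control regions are not named. All tumours share the diagnosis and the probe panel, and nothing in the labels says how an area was chosen within a piece of tissue. The files do not pair probes with genes, so probes stand by their identifiers, no gene or role is assigned to them, and the labelled tissue could not be checked against marker genes.

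Total counts per tumour, with all its regions summed, ran from 173686 to 1474200 in the RTS0112273-high tumours (median 539322) and from 153849 to 1787491 in the RTS0112273-low tumours (median 741816.5). Single tumour regions held between 17711 and 1069118 counts. Levels are given as log2 CPM, counts scaled to a common library size with TMM factors and a prior count of 2, on a logarithmic scale. A difference of 1 on this scale is a 2-fold difference.

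RTS0112273 was at 15.34 ± 0.64 log2 CPM in the RTS0112273-high tumours and at 9.46 ± 1.66 in the RTS0112273-low tumours (SD, n = 8 each). The high set ran from 14.69 in tumour 2203 to 16.77 in tumour 901, with a median of 15.13, and its other members were tumours 404, 2202, 2201, 809, 2206 and 702. The low set ran from 6.6 in tumour 1002 to 11.32 in tumour 1701, with a median of 9.83, and its other members were tumours 1001, 1405, 502, 601, 706 and 701. Tumour 901 stood apart at the top, where the probe took 9.11% of all counts, against 0.0126% in tumour 1002.

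The edges of the sets were not sharp. The last tumour inside the high set, 2203 at 14.69, was followed by tumour 214 at 14.29, a gap of 0.4. At the other edge, tumour 1701 at 11.32 lay 0.18 below tumour 610 at 11.5. The 8 tumours between the sets ran from 11.5 to 14.29. The low set was the more spread out of the 2: it covered a wider range of levels than the high set did.

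The low end of the range reached the level of the control tissues. With all 80 tissue regions scaled together, RTS0112273 was at 6.74 ± 0.24 in kidney, 6.82 ± 0.3 in spleen and 7.05 ± 0.2 in liver (SD, n = 4 regions each), where regions of the high set ran from 13.41 to 16.85 and regions of the low set from 6.68 to 12.18. In tumour 1002 the 503 probes with the lowest mean level averaged 6.09, close below its RTS0112273 level. Background was not subtracted. The median count of the probe was 20819.5 in the high set and 391.5 in the low set, so counting error is small beside the spread of the tumours. Levels of single regions and of control tissues below are on this common scale of 80 regions, and levels of tumours on the scale of the 24 tumours.

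The ranking was much alike on both arrays. The mean SD between regions of a tumour was 0.28, small beside the distance of 5.88 between the means of the sets. That mean includes the 14 tumours with only 1 region on each array. In the 10 tumours with 2 regions on each array the SD ran from 0.04 in tumour 1002 to 1.09 in tumour 1701. Ranking on array 1 alone gave the same 8 high tumours and 7 of the 8 low ones, and ranking on array 2 alone gave all 8 of each. Some tumours did vary inside: regions of tumour 1701 ran from 9.45 to 11.71 and those of tumour 2206 from 13.41 to 15.3.

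**Figure D1:**
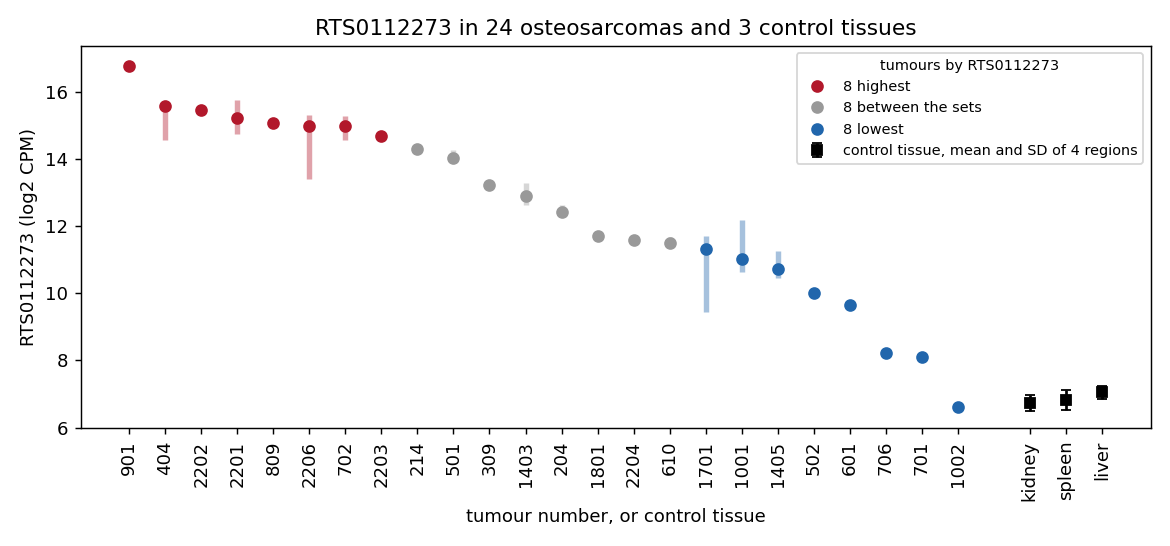
Level of RTS0112273 (log2 CPM, vertical axis) in the 24 tumours in order of level and in 3 control tissues (horizontal axis). Points are tumours with their regions summed, vertical bars span a tumour's single regions, which were scaled with all 80 tissue regions, and squares with error bars are the mean and SD of 4 control regions; the 8 highest tumours lie at 14.69 and above, and the lowest tumour, 1002 at 6.6, lies beside the control tissues.

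Of 2009 other probes, 29 rose and 23 fell in the RTS0112273-high tumours relative to the RTS0112273-low tumours (edgeR quasi-likelihood test, Benjamini-Hochberg adjusted p under 0.05). These are 1.44% and 1.14% of the probes tested. Before adjustment 426 probes had a p under 0.05. The 29 probes that rose did so by log2 fold changes of 0.53 to 3.29 with a median of 1.18, 19 of them by more than 2-fold and 8 by more than 4-fold. The 23 that fell had log2 fold changes of -0.83 to -4.82 with a median of -1.26, 17 of them past 2-fold and 3 past 4-fold. The counts depended on single tumours, and leaving out each of the 16 in turn gave 16 to 48 higher and 9 to 40 lower. The number higher was 48 without tumour 2203 and 16 without tumour 1002. The number lower was 40 without 404, 39 without 1701, 13 without 901, 1405 or 1002, 12 without 2202, 11 without 2206 and 9 without 809.

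The 2 directions differed in the level of the probes. When probes were divided into 4 classes of about equal size by their mean level over the 16 tumours, 17 of the 23 lower probes were in the highest class, 6 in the next, and 0 in the 2 lowest, where mean levels ran from 4.78 to 7.1. The higher probes were spread over all classes, with 7, 10, 4 and 8 from the lowest class to the highest. The 503 probes with the lowest mean level averaged 6.29 ± 0.25 in the high set and 6.09 ± 0.11 in the low set (SD, n = 8 each), a difference of 0.201 with an exact two-sided permutation p = 0.0598, adjusted over 4 measures to 0.12. Its part in the calls of weak probes was not tested.

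**Figure D2:**
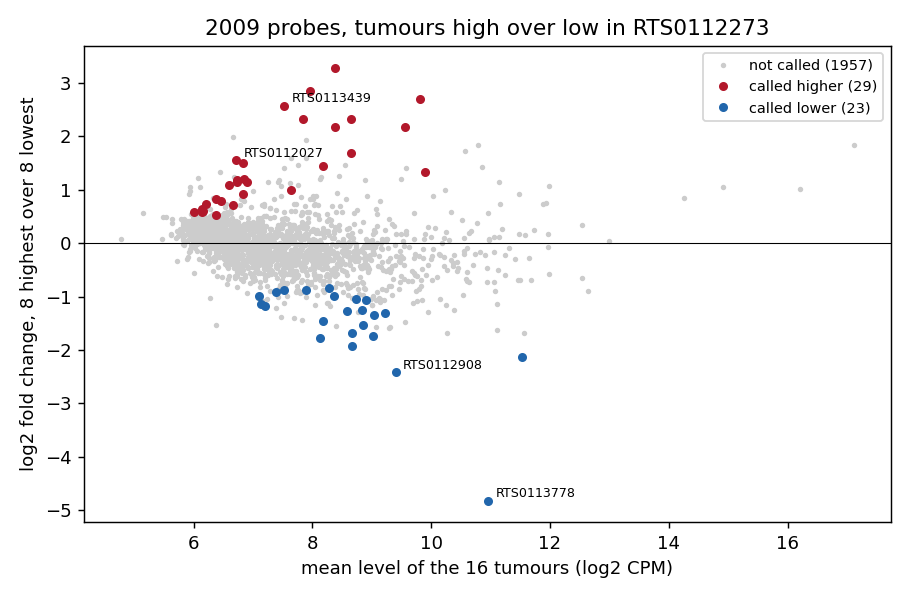
Log2 fold change of the 8 highest over the 8 lowest tumours (vertical axis) against the mean level over the 16 tumours (log2 CPM, horizontal axis) for 2009 probes. Red points are the 29 probes called higher and blue points the 23 called lower; RTS0113778 lies apart from the other lower probes at -4.82.

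Complete separation of the sets was rarer than a call. In 6 probes, 0.299% of those tested, every high tumour lay above every low tumour, and in 3 probes, 0.149%, every high tumour lay below every low tumour. The 2 probes of each direction with the largest fold changes among them are described next.

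RTS0113778 had the strongest fall. Its lowest, median and highest levels were 6.88, 8.88 and 9.81 log2 CPM in the high set, against 11.05, 13.65 and 14.74 in the low set. All 8 high tumours were below all 8 low tumours, and tumour 901, the highest in RTS0112273, was the lowest of these 16 in RTS0113778. The log2 fold change was -4.82 ± 0.64 (SE, edgeR adjusted p = 0.000195), a 28.2-fold difference. In counts, the probe took a median of 0.0366% of a high tumour and 1.1% of a low tumour, so in the low set it was an abundant probe. The control tissues were at 6.75 in kidney, 7.58 in spleen and 7.04 in liver, below the median of both sets.

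RTS0112908 fell as well, with levels of 6.93, 8.31 and 9.11 (lowest, median, highest) in the high set and 9.56, 10.71 and 11.52 in the low set. Again the sets did not overlap and tumour 901 was the lowest of all 16. The sets differed by -2.42 ± 0.37 on the log2 scale (SE, edgeR adjusted p = 0.000959), a 5.34-fold difference. Kidney at 8.98, spleen at 8.44 and liver at 8.11 lay near the median of the high set for this probe.

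RTS0113439 rose. Its levels were 7.34, 8.75 and 9.81 in the high set, against 6.14, 6.36 and 6.58 in the low set, and no tumours overlapped. Tumour 2206 was highest and tumour 702 lowest of the high set, while the 8 low tumours lay close together. The log2 fold change was 2.57 ± 0.31 (SE, edgeR adjusted p = 8.5e-05). The low-set mean of 6.37 was close above the 6.09 of the 503 lowest probes in those tumours, so the fold is taken against a level near the weakest probes. Of the control tissues, spleen was at 8.16, near the high set, and kidney at 6.47 was near the low set, with liver at 6.98.

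RTS0112027 rose with more unequal tumours. It was at 6.33, 7.3 and 8.9 in the high set and at 5.85, 6.11 and 6.22 in the low set. Tumour 404 was the highest, and tumours 2203 and 901, at 6.33 and 6.46, barely exceeded the low set. Its fitted log2 fold change was 1.55 ± 0.29 (SE, edgeR adjusted p = 0.00473), beside mean levels of 7.36 and 6.07. The call held in 30 of 39 alternatives. The difference was 0.32 with 12 against 12 tumours (edgeR adjusted p = 0.611) and 0.97 with library size alone for ranking and fit (0.129). It is a weak probe, with median counts of 64.5 in a high and 60 in a low tumour, and its low-set mean of 6.07 lay beside the 6.09 of the 503 lowest probes in those tumours. Background could not be estimated, and the low set was not shown to be above it. The low-set level lay below kidney at 6.71, spleen at 6.97 and liver at 6.99.

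**Figure D3:**
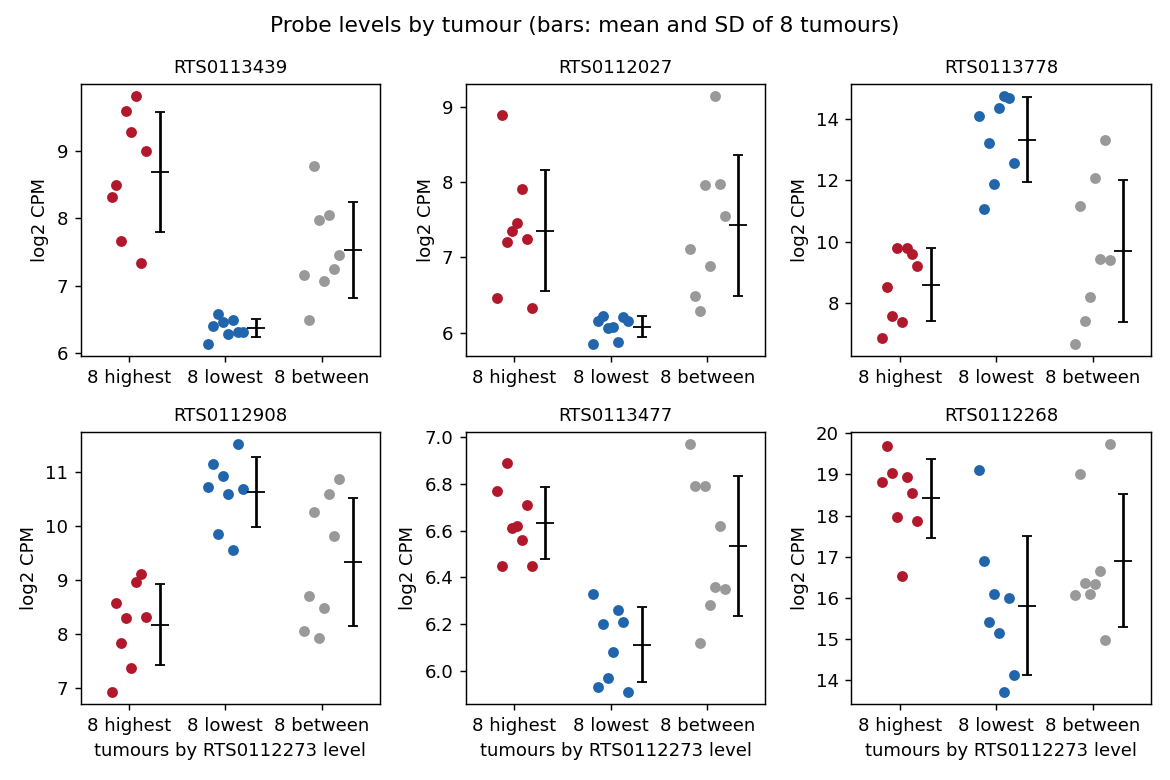
Levels (log2 CPM, vertical axes) of 6 probes in the 8 tumours highest in RTS0112273, the 8 lowest and the 8 between, with the mean and SD of 8 tumours beside each set. The high and low sets do not overlap in RTS0113439, RTS0112027, RTS0113778, RTS0112908 and RTS0113477, while in RTS0112268 tumour 1701 of the low set reaches 19.11.

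The sets also differed in how the counts were spread over probes. The 10 most abundant probes of a tumour held 54.4% ± 11.9 of its counts in the high set and 28.4% ± 13.6 in the low set (SD, n = 8 each), with an exact two-sided permutation p = 0.00295, adjusted to 0.0118 over 4 measures. High tumours ran from 38.9% to 66.6%, and low tumours from 19.1% to 59.9%, with tumour 1701 at the upper end and the next at 32.1%. RTS0112273, which chose the sets, was kept in this measure and in the totals below. It held 2.03% to 9.11% of the counts of a high tumour and 0.0126% to 0.23% of a low one. Its part in the difference was not tested. Log2 total counts averaged 19 ± 1.04 in the high set and 19.4 ± 1.08 in the low set (exact permutation p = 0.475, adjusted 0.619). The difference was not alike on the arrays, at 0.215 on array 1 and -1.38 on array 2 (exact permutation, adjusted p = 0.697 and 0.088). Regions per tumour averaged 3.25 and 2.75 (exact permutation p = 0.619, adjusted 0.619).

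RTS0112268, the most abundant probe of the tumours, was part of this difference. Its median share of the counts was 34.6% in the high set and 6.37% in the low set. Its levels were 16.52, 18.68 and 19.69 in the high set and 13.71, 15.71 and 19.11 in the low set, and all 8 high tumours were above the low-set median. The fitted log2 fold change of 1.83 ± 0.71 (SE) did not pass the threshold (edgeR adjusted p = 0.163). It is fitted to the counts and is not the difference of the mean levels, 18.42 in the high set and 15.81 in the low set. Tumour 1701, at 19.11, was the highest of the low set, and its part in the missed call was not tested. Over all 24 tumours the level of RTS0112268 did rise with that of RTS0112273. Pearson's r was 0.699 and Spearman's rho 0.637 (permutation p adjusted over 2009 probes, 0.0201 and 0.0429). In the 8 tumours between the sets r was 0.0159.

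Adjusting for this difference in composition ended most calls but kept 3 of the 4 probes described. With the percent of counts in the 10 highest probes as a covariate, 2 probes were higher and 5 lower, and with the level of RTS0112268 as a covariate, an alternative chosen after seeing the data, 5 were higher and 10 lower. Of the 29 and 23 probes called without a covariate, 2 and 3 were among the first counts and 4 and 5 among the second, while all 29 and 23 kept their direction in both, as did 78.1% and 79.2% of all probes. RTS0113439 stayed higher in both (log2 fold changes 3.08 and 2.85, edgeR adjusted p = 0.000209 and 0.0024). RTS0113778 stayed lower (-4.62 and -4.66, edgeR adjusted p = 0.00133 and 0.0024), as did RTS0112908 (-2.7 and -2.97, edgeR adjusted p = 0.0147 and 0.00289). RTS0112027 kept its direction but not its call (1.2 in both, edgeR adjusted p = 0.371 and 0.219). The percent in the 10 highest probes includes RTS0112273, which chose the sets, and it differed between the sets. Composition and the choice of the sets therefore cannot be told apart in the calls that were lost, and neither part was tested further.

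**Figure D4:**
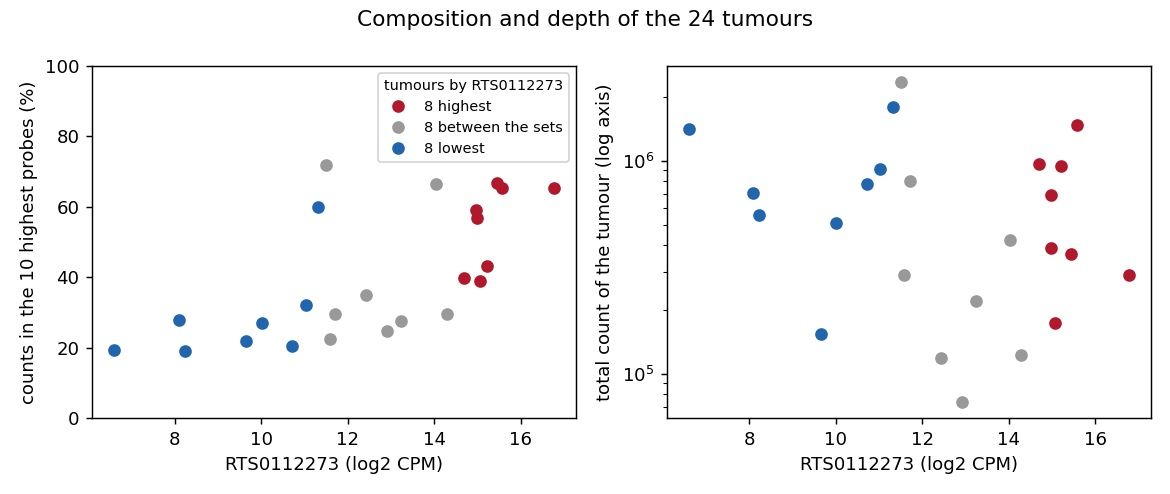
Percent of a tumour's counts in its 10 highest probes (left, vertical axis) and total count (right, logarithmic vertical axis) against the level of RTS0112273 (log2 CPM, horizontal axes) in 24 tumours. The 8 highest tumours lie between 38.9% and 66.6%, whereas 7 of the 8 lowest lie at 32.1% or below, with tumour 1701 at 59.9%.

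The tumours were also chosen on the libraries of one array and tested on those of the other. With the sets as chosen on both arrays, counts of array 1 alone gave 23 higher and 21 lower, and counts of array 2 alone 28 and 21. With tumours ranked on array 1 and tested on counts of array 2, 21 of 2004 probes were higher (1.05%) and 12 lower (0.599%). Ranking on array 2 chose the same 16 tumours, so the test on array 1 is the same as with array 1 counts alone, where 23 of 2008 were higher (1.15%) and 21 lower (1.05%). Of the 29 higher and 23 lower probes, 10 and 8 were called in both of these tests, and all 52 kept their direction in each, as did 87.5% of all probes in the first test and 92.3% in the second. The 52 were called on counts that include the tested array, which favours keeping the direction. The arrays hold the same tumours, so this separates libraries, not animals. RTS0113778 (log2 fold changes -4.52 and -4.86), RTS0112908 (-2.44 and -2.31) and RTS0113439 (2.41 and 2.58) were called both times, the highest edgeR adjusted p being 0.000868. RTS0112027 was at 1.15 in the first test (edgeR adjusted p = 0.0714) and 1.6 in the second (0.00792).

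Over all 24 tumours, with the log2 level of RTS0112273 as a covariate, 27 of 2009 probes rose (1.34%) and 45 fell (2.24%). Of the 29 higher probes 18 were called again, and of the 23 lower probes 16. Per unit of log2 RTS0112273, RTS0113778 changed by -0.82 (edgeR adjusted p = 0.000479), RTS0112908 by -0.41 (0.00143 by the same test) and RTS0113439 by 0.35 (0.00152), while RTS0112027 was at 0.17 (0.168).

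The probes whose pattern was most like that of RTS0112273, by Pearson's r over the 24 tumours, were RTS0113477 and RTS0113439, and the most opposite were RTS0112908 and RTS0113778. RTS0113477 had r = 0.75 and Spearman's rho = 0.746 (permutation p = 4e-05 and 8e-05, adjusted over 2009 probes 0.0161 and 0.0129), with r = 0.709 without tumours 1002 and 701, which lay farthest from the median. Its r was lower on single arrays, at 0.606 and 0.529. This probe spanned little: 6.45 to 6.89 in the high set and 5.91 to 6.33 in the low set, and the sets differed by 0.53 ± 0.12 log2 units (SE, edgeR adjusted p = 0.018). It is a weak probe, with median counts of 42 in a high and 61.5 in a low tumour. Its median share of the counts was 0.00866% and 0.00805%, and with library size alone in the fit the difference was 0.12. Its low-set mean of 6.11 lay beside the 6.09 of the 503 lowest probes in those tumours. The call held in 27 of 39 alternatives. It ended without tumour 1002 (edgeR adjusted p = 0.0515), with array 2 counts only (0.325), with array 2 tested after ranking on array 1 (0.226), with thinned counts (0.152), with library size alone (0.78, or 0.554 where it also ranked) and with the composition covariates (0.442 and 0.217). Kidney, at 8.52, was above every tumour for this probe.

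RTS0113439 had r = 0.723 and rho = 0.791 (permutation p = 0.00011 and 2e-05, adjusted 0.0201 and 0.00804), and r = 0.699 without the 2 farthest tumours. RTS0112908 had r = -0.793 and rho = -0.805 (permutation p = 3e-05 and 2e-05, adjusted 0.0161 and 0.00804), and r = -0.771 without them. RTS0113778 had r = -0.79 and rho = -0.767 (permutation p = 1e-05, the smallest that the permutations can give, and 5e-05, adjusted 0.0161 and 0.011), and r = -0.789 without them. For these 3 probes r stayed between 0.709 and 0.726 or between -0.779 and -0.792 on the single arrays. Of all 2009 probes, 9 had a positive and 28 a negative r past an adjusted p of 0.05.

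**Figure D5:**
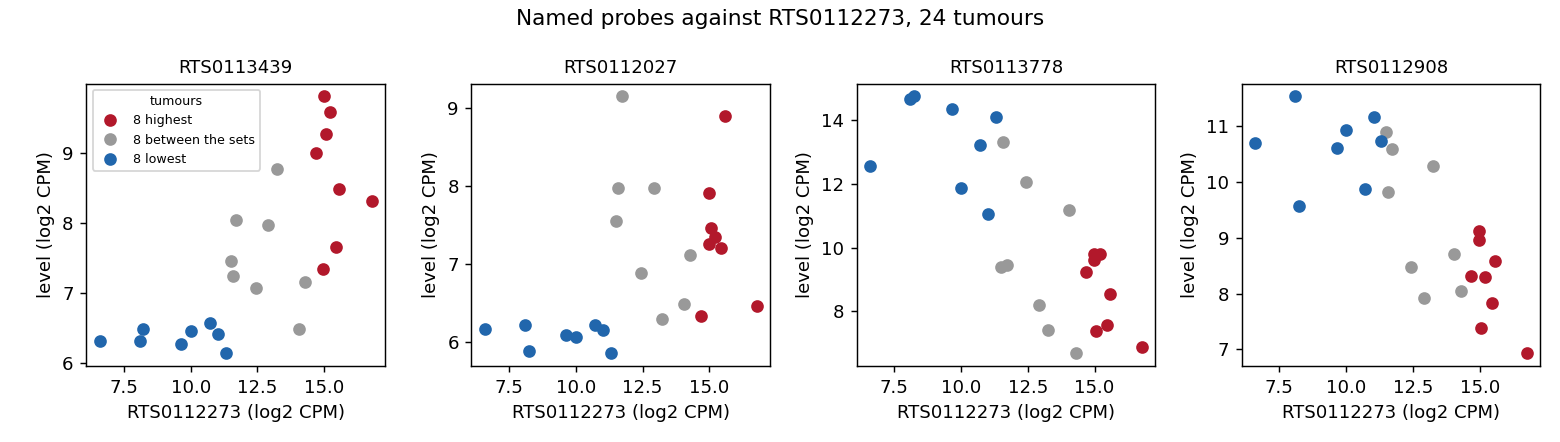
Level of each of the 4 probes with non-overlapping sets and large fold changes (log2 CPM, vertical axes) against RTS0112273 (log2 CPM, horizontal axes) in 24 tumours. RTS0113439 and RTS0112027 are flat over the 8 lowest tumours and spread over the others, and RTS0113778 and RTS0112908 are lowest in tumour 901 or in tumours between the sets.

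The 8 tumours between the sets played no part in the comparison. In these tumours, with RTS0112273 as a covariate, 0 probes were called in either direction by edgeR and 248 had an unadjusted p under 0.05, an alternative chosen after seeing the data. Of the 23 lower probes, 21 had a negative slope there, and of the 29 higher probes 13 had a positive slope, beside 67.9% of all probes whose slope had the direction of the comparison of 8 against 8. RTS0113439 was at -0.07 per log2 unit (edgeR adjusted p = 0.898) and RTS0112027 at -0.62 (0.35), so neither kept its direction, whereas RTS0113778 was at -0.87 (0.478) and RTS0112908 at -0.71 (0.385). In level, RTS0113439 ran from 6.49 to 8.78 and RTS0112027 from 6.29 to 9.15 in these tumours, and the highest RTS0112027 of all 24 tumours was among them. RTS0113778 ran from 6.68 to 13.31 and RTS0112908 from 7.92 to 10.88. These tumours span only 11.5 to 14.29 of RTS0112273.

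Regions of a single tumour gave a second view. In the 10 tumours with 2 regions on an array, the 20 pairs of regions differed in RTS0112273 by a median of 0.64 log2 units and by at most 2.01. Some pairs were near ties, down to 0.03, where it is uncertain which region holds more. RTS0113439 was higher in the region with more RTS0112273 in 16 of the 20 pairs, and 0.448% of all probes were higher in at least as many. RTS0113778 was lower in that region in 17 pairs, and 0.498% of all probes were lower in at least as many. Near ties are among the pairs counted. In tumour 2203 the pairs differed by 0.05 and 0.07 in RTS0112273 and by 2.62 and -3.06 in RTS0113778. Near ties in RTS0113439 itself were counted too, in tumours of the low set. They were 0.03 and 0.11 in tumour 1002, 0.03 on array 2 in tumour 1701 and -0.04 on array 1 in tumour 1001. RTS0112908 was lower in the region with more RTS0112273 in 14 pairs, as 7.62% of all probes were in at least as many. RTS0112027 was higher there in 9, as 72.6% were in at least as many. RTS0112268, the most abundant probe, was higher in 7. In the 8 pairs that differed by more than 1 in RTS0112273, RTS0113439 was higher in 7 and RTS0112027 in 3. RTS0113778 and RTS0112908 were higher in 1 each. The 29 higher probes had a median of 12 pairs in the direction of RTS0112273 and the 23 lower probes a median of 8, against 10 over all probes. A region on one array may lie beside its counterpart on the other, so the 20 pairs are not independent. With the tumour as a block and the region's level as a covariate, edgeR called 0 probes on either array (126 and 107 with an unadjusted p under 0.05). The slope of RTS0113778 per log2 unit was then -0.17 on array 1 and -0.23 on array 2 (edgeR adjusted p = 0.985 and 0.998), nearer to 0 than the -0.82 over the 24 tumours. RTS0113439 had slopes of 0.64 and 0.6 (0.774 and 0.533), RTS0112908 of -0.63 and -0.47 (0.814 and 0.884) and RTS0112027 of 0.29 and 0.03 (0.87 and 0.998).

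Probes that mark the control tissues were compared last. The sets of probes higher in every region of 1 control tissue than in the other tissues held 131 probes for kidney, 99 for spleen and 46 for liver. Kidney-high probes averaged 8.24 ± 0.34 in the high set and 8.33 ± 0.18 in the low set, with 2 called higher and 0 lower, beside the 1.44% and 1.14% called over all probes. Spleen-high probes averaged 8.45 ± 0.27 in the high set and 8.75 ± 0.24 in the low set (SD, n = 8 each), ranging over 8.06 to 8.93 and 8.45 to 9.17. Of the 99, 5 were called lower and 2 higher, where 1.14% and 1.44% of all probes were, and 27 had a log2 fold change above 0, beside 1003 of all 2009. Their median log2 fold change was -0.48, against 0 for all probes. Both means of the spleen-high probes lie in the highest of the 4 classes of level, where 17 of 503 probes were called lower and 8 higher. The part of level in the spleen-high calls was not tested. Liver-high probes averaged 7.15 ± 0.2 in the high set and 7.06 ± 0.18 in the low set, with 2 called higher and 0 lower, beside the same shares of all probes. Under upper quartile scaling the difference in level was -0.12 for spleen-high probes and it changed sign for kidney-high probes, to 0.09. With library size alone it also changed sign for liver-high probes, to -0.38.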

How the data were processed

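Each region has 1 deposited file of probe counts, written by the GeoMx NGS Pipeline 2.3.4 per the file headers. The summed count was far below the aligned reads in every tumour region (95.7% to 98.9% of reads in excess). No normalization is recorded, and a probe not listed was taken as a count of 0. Regions were summed per tumour, and TMM-scaled log2 CPM ranked the 24 tumours. RTS0112273 was then removed, and the 8 highest were tested against the 8 lowest with edgeR 4.0.16 (quasi-likelihood, filterByExpr, R 4.3.3), where an SE is the fold change over the root of F. The method was tested on simulated data. DESeq2 1.42.0 and limma 3.58.1 were alternatives. Named probes were the 2 per direction with the largest fold change among called probes whose sets do not overlap, the 2 highest and 2 lowest in r, and RTS0112268. The 4 measures of depth and composition were tested exactly over 12870 assignments, and correlations with 100000 permutations. Tissue-high probes exceed each other tissue's mean by at least 1 log2 unit. Probe identifiers matched 0 rows of the RefSeq gene table, so gene lists were not used. The no-template control was not used. The comparison and its rules were chosen with earlier results of these data known. The p-values of comparisons and correlations over tumours take the tumour as the unit. Those of the fits within tumours take the region as the unit.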

Additional observations from a re-analysis of the deposited data

Results flagged for a closer look

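Among 41 sets of 4 or 8 samples looked at, 2 held a sample far from the others, where chance gives about 1 in 20 sets. In the RTS0112273-high tumours, tumour 901 was at 16.77 log2 CPM of RTS0112273, apart from the other 7 at 14.69 to 15.57. These levels chose the set, so the rate of 1 in 20 does not apply to them and the flag is only a description. Without tumour 901, 28 probes were higher and 13 lower. In the RTS0112273-low tumours, tumour 1701 held 59.94% of its counts in its 10 highest probes, against 19.06% to 32.08% in the others. Without it, 37 probes were higher and 39 lower.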

How the results depend on the processing

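Against 29 higher and 23 lower probes, the counts of calls moved with the scaling and the tool. Upper quartile scaling gave 44 and 15, or 181 and 36 when it also ranked the tumours, which exchanged 1 high tumour. Library size alone gave 17 and 253, or 12 and 47 when it also ranked the tumours. In the fits that kept the ranking, these scalings moved the median log2 fold change of all probes from 0 to 0.18 and -0.43, so they shift all probes together. DESeq2 gave 82 higher and 75 lower, and limma voom 43 lower. Ranking on array 1 and testing on array 2 gave 12 lower, 12 against 12 tumours 49 lower, and the covariate over 24 tumours 45 lower. The percent in the 10 highest probes as a covariate gave 2 and 5, and regions within tumours gave 0 and 0 on each array. Of the settings chosen after seeing the data, RTS0112268 as a covariate gave 5 and 10, the 8 tumours between the sets 0 and 0, and leaving out the 17 regions of lowest total 19 higher. Leaving out each tumour gave 16 to 48 higher and 9 to 40 lower. The cause of these changes was not tested.

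RTS0113439, RTS0113778 and RTS0112908 were each called in 36 of 39 alternatives, all but the 2 fits within tumours and the one over the 8 tumours between the sets. In the last, RTS0113439 had the opposite sign (-0.07), as had RTS0112027 (-0.62). RTS0112027 was called in 30 of the 39 and RTS0113477 in 27. The 39 are not all separate checks. The fit without the filter repeats the main fit, and testing array 1 after ranking on array 2 repeats array 1 counts alone. Within tumours, RTS0113477 had the opposite sign (-0.2 and -0.1). The difference in log2 total count was 0.215 on array 1 alone and -1.38 on array 2 alone, beside -0.384 over both arrays (exact permutation, adjusted p = 0.697, 0.088 and 0.619), so the high set was the shallower on array 2. With library size alone the level of the tissue-marking probes differed by -0.57 (kidney), -0.79 (spleen) and -0.38 (liver). Thinning to 153849 counts left both counts of calls within 1.5 times. The filter had removed no probe, so the fit without it is the same fit. No paired analysis was possible because each tumour lies in 1 set only. Weak probes near 6 log2 CPM need care, because their background could not be estimated. The part of depth in their levels was not tested.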
